A study of Mus musculus with 3 samples.

Results

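The 10 genes described here are the mouse Hippo core kinases and their adaptors, the TEAD factors and the coactivators: Yap1, Wwtr1, Tead1, Tead3, Tead4, Stk3, Stk4, Sav1, Lats1 and Nf2. They were listed by their role in the pathway and were found on the arrays through the RefSeq accession that each probe carries. They are 10 of 20280 genes that had a probe matched this way, and they had 14 probes, each with 1 spot per array. Of these probes, 11 were measured on all 3 arrays, where measured means that the scanner software marked the spot well above background. This left 9 of the 10 genes with a level on every array, and Tead4 was the exception.

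Liver RNA from mice of the strain labelled c57BL6/J was hybridised to 3 one-colour arrays, 1 for each group, with a time label of 2 days after gene delivery. Every group received a human YAP cDNA by hydrodynamic tail vein injection, which drives plasmid into hepatocytes through a rapid high-volume injection: wild-type YAP (WT), the active mutant YAP (1SA) or the active mutant YAP (2SA). The WT array is therefore also a liver with added YAP, and no array of a liver without added YAP was analysed here. Per the study's methods, the cDNAs carried a Myc tag and were expressed from a vector with an AFP enhancer and a minimal albumin promoter, which is active in hepatocytes. Young adult male mice were injected, expression was mosaic, in some hepatocytes and not in others, and whether an array held RNA of 1 mouse or of several was not stated. With 1 array per group no difference had a replicate check, no test was run, and the construct, the liver and the array cannot be told apart.

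The Hippo pathway is a kinase cascade that keeps the coactivators YAP and TAZ out of the nucleus. MST1 and MST2, bound to the adaptor SAV1, activate the LATS kinases with the help of NF2, and LATS kinases phosphorylate YAP and TAZ on serines, which leads to their retention in the cytoplasm and their degradation. YAP and TAZ that escape this enter the nucleus and act through the TEAD factors, which bind DNA. In liver the pathway is known as a control of hepatocyte number and organ size, and some of its own components are known transcriptional targets of YAP and TEAD.

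The level of a spot is its processed intensity, a brightness on a linear scale, printed with the error that the scanner software estimated for that spot. Differences between arrays are on the log2 scale, after each array was set to its own 75th percentile of intensity (291 on WT, 276 on 1SA and 319 on 2SA). A spot limit is set beside the differences of the members: it is 2 SDs of a difference between arrays, taken from probes of similar signal that were spotted many times, and it reflects spot error but no variation among mice. Probes of different genes differ in how well they hybridise, so levels are compared between arrays and not between genes.

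Of the 10 genes, Tead1 and Tead4 showed the largest differences, and both were highest on the 2SA array. The bright Tead1 probe was 2.07-fold higher on 2SA than on WT. Tead4 was not measured on WT, and its 2SA level was 4.40-fold the lowest signal measured on the WT array. With normexp, another background correction that here also adds an offset of 50 to each spot, this approximate bound was 1.46-fold. Wwtr1 was 0.28 higher on 1SA and 0.30 higher on 2SA on the log2 scale, and Stk4 was 0.43 higher on 2SA than on 1SA. Yap1, Tead3, Stk3, Sav1, Lats1 and the bright Nf2 probe stayed within 0.21 of WT in size on both mutant arrays.

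**Figure D1:**
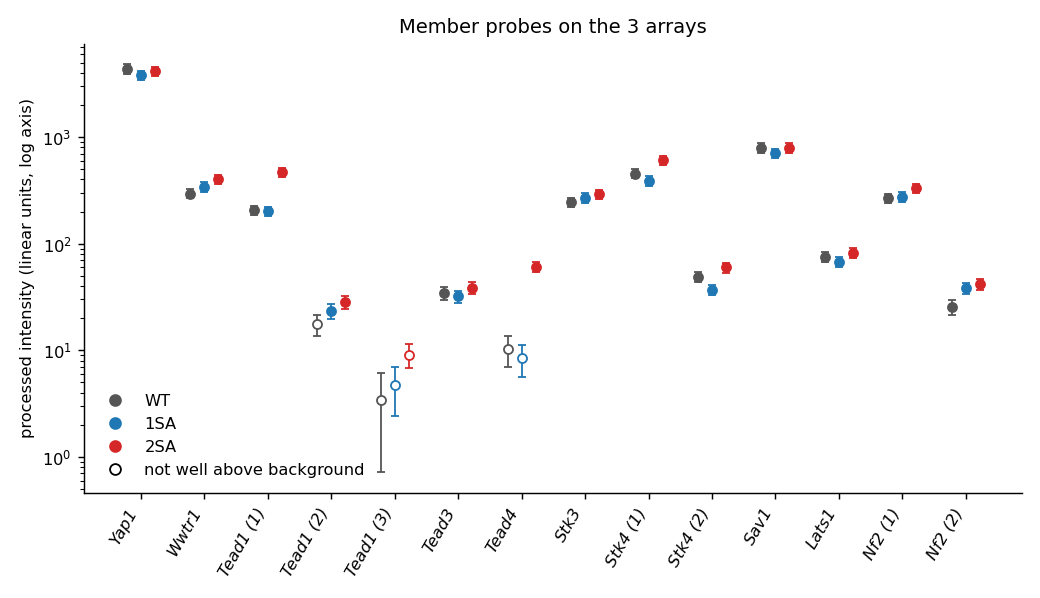
Processed intensity of the 14 member probes (log axis) on the WT, 1SA and 2SA arrays, with bars for the scanner software's error and open circles for spots not well above background. Tead4 was well above background on 2SA alone, at 60.4, and the first Tead1 probe stood at 466 on 2SA against 205 on WT and 201 on 1SA.

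Yap1 encodes the mouse YAP protein, the coactivator whose human form was introduced here. Its single probe read 4366 ± 437 on WT, 3779 ± 378 on 1SA and 4156 ± 416 on 2SA. After scaling, the WT array was the highest and the 2SA array the lowest of the 3. The difference from WT was -0.13 on 1SA and -0.21 on 2SA, and 2SA minus 1SA was -0.08, against a spot limit of 0.14. Only 2SA minus WT passed the spot limit, and the software's error of that difference was 0.20, so it was about as large as 1 such error. Whether this mouse probe also binds the human YAP transcript was not tested, because the probe sequence was not used here, so the values give no check of the labels and cannot be read as the level of mouse Yap1 alone.

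Wwtr1 encodes TAZ, the paralogue of YAP. Its probe read 295 ± 29.7 on WT, 341 ± 34.2 on 1SA and 400 ± 40.1 on 2SA. Both mutant arrays were above WT and lay next to each other after scaling. The log2 difference from WT was 0.28 on 1SA and 0.30 on 2SA, beyond the spot limit of 0.20 but under 2 software errors, and 2SA minus 1SA was 0.02. Both comparisons share the WT array. Of all 13623 genes measured on the 3 arrays, 10.5% were at least as high as Wwtr1 in 1SA minus WT and 10.3% in 2SA minus WT.

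TEAD factors are the DNA-binding partners of YAP and TAZ. Tead1 had 3 probes under the same accession. The brightest read 205 ± 20.7 on WT, 201 ± 20.3 on 1SA and 466 ± 46.6 on 2SA, so that WT and 1SA were alike and 2SA stood alone. For this probe the log2 difference was 0.05 for 1SA minus WT, 1.05 for 2SA minus WT and 1.00 for 2SA minus 1SA, with a spot limit of 0.21. Both comparisons with 2SA were beyond 2 software errors. A difference from WT of this size or larger in either direction was found for 1.48% of all measured genes in 2SA minus WT.

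The other Tead1 probes gave no second reading of this pattern. The second read 17.5 ± 3.94 on WT, where it was not well above background, 23.4 ± 3.73 on 1SA and 28.4 ± 3.95 on 2SA. Its differences from WT of 0.50 on 1SA and 0.56 on 2SA were inside the spot limit of 0.60. Between the mutant arrays it differed by 0.06, where the brightest probe differed by 1.00. The third probe was not well above background on any array, with readings of 3.44, 4.67 and 9.06. The difference of Tead1 between 2SA and 1SA therefore rested on 1 spot per array.

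Tead4 had 1 probe. It read 10.3 ± 3.35 on WT and 8.38 ± 2.78 on 1SA, both not well above background, and 60.4 ± 6.60 on 2SA, where it was measured. The level on 2SA was set against the other array's lowest measured signal, or the Tead4 reading itself where that was higher. This gave bounds of 4.40-fold over WT and 5.08-fold over 1SA. They are not strict minima, since they leave out the software's error. Some spots brighter than the lowest measured signal were also not well above background, such as the second Tead1 probe on WT. With normexp and its offset in place of the software's background subtraction, these bounds were 1.46-fold and 1.44-fold. The offset alone compresses dim spots. Nothing can be said about WT against 1SA for this gene. Tead3 was dim on every array, at 34.1 ± 4.75 on WT, 32.0 ± 4.22 on 1SA and 38.7 ± 4.68 on 2SA. Differences of -0.01, 0.05 and 0.06 for 1SA minus WT, 2SA minus WT and 2SA minus 1SA were all inside the spot limit of 0.48. Tead2, the remaining TEAD gene and not a member of the list, read 133, 128 and 141, and its largest difference between arrays was -0.07 against a spot limit of 0.26. A dimmer Tead2 probe gave -0.31 for 2SA minus WT, inside its spot limit of 0.43.

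**Figure D2:**
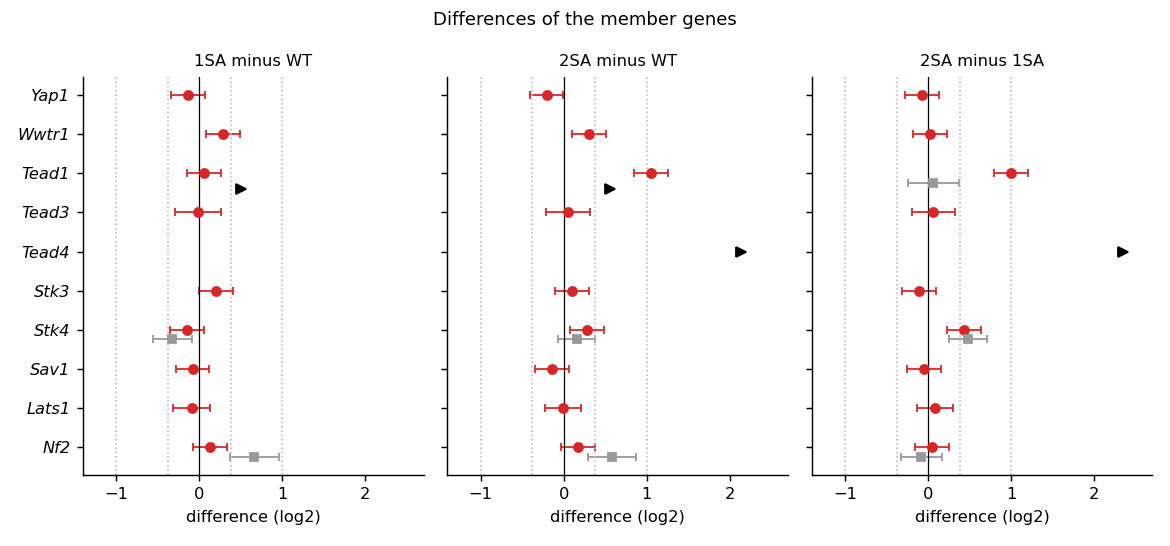
Log2 differences between arrays for the member genes, with the software's error as bars. Red circles are the representing probe of each gene, grey squares are further probes measured on both arrays, and dotted lines mark 1.3-fold and 2-fold. Black arrowheads are approximate bounds for probes measured on 1 of the arrays. They are taken against the other array's lowest measured signal, or the probe's own reading where that was higher. Tead1 lies at 1.05 in 2SA minus WT and Tead4 has only bounds.

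Because TEAD factors bind the letters CATTCC, or GGAATG on the other strand, the promoters of the member genes were searched for them, from 250 bases before to 50 bases after the transcript start (RefSeq, GRCm38.p6). Yap1, Wwtr1, Tead3, Stk4, Sav1, Lats1 and Nf2 had entries, and Tead1, Tead4 and Stk3 had none. Among the 7 genes with entries, Yap1, Wwtr1, Tead3 and Sav1 held at least 1 match, and Stk4, Lats1 and Nf2 held no match in this window. Counted by window, 6 of 11 member windows held a match, beside 14.7% of all 32851 promoters of the same length and 12.7% of the promoters of measured genes. The windows of Wwtr1 overlap each other, as do those of Tead3, so they share sequence. Both Wwtr1 windows hold the same match, so that 1 site enters the 6 more than once, and Tead3 has several of the 11 windows. No share counted by gene was computed over all genes, and an excess of matches was not tested. Wwtr1 is shown because it was above WT on both mutant arrays, Yap1 because it is the gene whose human form was added, and Tead3 because 1 of its windows held 3 matches. Capitals mark the matches, and all 3 windows are printed 5′ to 3′ on the minus strand: chr9:8004547-8004846 for Yap1, chr3:57575827-57576126 for Wwtr1 and chr17:28350551-28350850 for Tead3.
Yap1: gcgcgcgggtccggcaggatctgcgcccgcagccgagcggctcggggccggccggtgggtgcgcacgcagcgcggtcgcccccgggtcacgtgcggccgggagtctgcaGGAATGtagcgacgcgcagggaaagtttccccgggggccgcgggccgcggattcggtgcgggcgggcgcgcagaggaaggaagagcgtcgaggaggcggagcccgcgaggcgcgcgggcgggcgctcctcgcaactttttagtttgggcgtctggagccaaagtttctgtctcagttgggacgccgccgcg
Wwtr1: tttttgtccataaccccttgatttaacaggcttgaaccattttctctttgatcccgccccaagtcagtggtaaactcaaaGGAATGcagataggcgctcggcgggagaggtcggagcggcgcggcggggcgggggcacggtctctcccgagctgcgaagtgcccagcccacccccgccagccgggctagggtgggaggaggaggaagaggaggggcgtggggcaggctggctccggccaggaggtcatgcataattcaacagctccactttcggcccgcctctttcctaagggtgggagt
Tead3: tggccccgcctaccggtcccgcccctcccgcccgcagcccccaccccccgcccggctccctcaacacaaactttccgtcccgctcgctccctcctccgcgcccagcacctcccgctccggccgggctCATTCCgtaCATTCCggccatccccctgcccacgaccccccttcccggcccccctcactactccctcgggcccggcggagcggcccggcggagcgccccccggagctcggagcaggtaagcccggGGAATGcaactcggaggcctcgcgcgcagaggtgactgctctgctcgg
The match began 141 bases before the start in Yap1 and 170 bases before it in Wwtr1. In Tead3 the matches began 123 and 114 bases before the start and 2 bases after it. Of these genes with a match, Tead3 and Sav1 were inside their spot limits. Wwtr1 was beyond its spot limit on both mutant arrays but under 2 software errors. The Yap1 probe was lower than WT on 2SA by about 1 software error, and it cannot be read as mouse Yap1 alone. Whether a match goes with a difference between arrays was not tested. A match is a run of letters and says nothing on whether TEAD was bound there.

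Stk4 and Stk3 encode MST1 and MST2, the kinases at the top of the cascade. The brighter Stk4 probe read 455 ± 45.6 on WT, 389 ± 39.0 on 1SA and 607 ± 60.8 on 2SA. It was lowest on 1SA and highest on 2SA, with log2 differences of -0.15 for 1SA minus WT, 0.28 for 2SA minus WT and 0.43 for 2SA minus 1SA, and a spot limit of 0.19. A dimmer Stk4 probe kept this order, at 48.8 ± 5.56, 37.0 ± 4.29 and 59.8 ± 6.33, with differences of -0.32, 0.16 and 0.48 against a spot limit of 0.41. In 2SA minus 1SA both probes passed their spot limit and 2 software errors. Among all measured genes, 10.2% were at least as high as Stk4 in that comparison.

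Stk3 read 246 ± 24.7 on WT, 268 ± 26.9 on 1SA and 289 ± 29.0 on 2SA. After scaling it was 0.20 above WT on 1SA and 0.10 above WT on 2SA, inside the spot limit of 0.21. Sav1, the adaptor of the MST kinases, read 792 ± 79.2, 709 ± 71.0 and 791 ± 79.2 in the same order, with differences from WT of -0.08 and -0.14 against a spot limit of 0.18. Neither gene was separated from WT on either mutant array at the precision of a single spot.

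Lats1 encodes a kinase that phosphorylates YAP and TAZ directly. Its probe read 75.5 ± 8.22 on WT, 67.2 ± 7.23 on 1SA and 82.4 ± 8.62 on 2SA, and the differences of -0.09, -0.01 and 0.08 were inside the spot limit of 0.32. Lats2, its paralogue and not a member of the list, read 450, 438 and 652. The Lats2 difference was 0.04 for 1SA minus WT and 0.40 for 2SA minus WT against a spot limit of 0.19, and its second probe gave 0.11 and 0.59 against 0.39. Both Lats2 probes were thus highest on 2SA, while the Lats1 probe differed between arrays by less than its limit.

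Nf2 encodes merlin, an upstream activator of the cascade, and its 2 probes disagreed. The brighter read 266 ± 26.8 on WT, 275 ± 27.6 on 1SA and 329 ± 33.0 on 2SA, with differences from WT of 0.12 and 0.17 inside the spot limit of 0.21. The dimmer read 25.4 ± 4.16, 38.1 ± 4.68 and 41.8 ± 4.91, and gave 0.66 for 1SA minus WT and 0.58 for 2SA minus WT, beyond its spot limit of 0.49 and beyond 2 software errors. Between the mutant arrays the probes gave 0.05 and -0.08. The dim probe was thus lower on WT than on both mutant arrays, and the bright probe was not separated between any of the 3.

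Counted over the 9 genes measured on all arrays, 1 passed its spot limit in 1SA minus WT (Wwtr1), 4 in 2SA minus WT (Yap1, Wwtr1, Tead1 and Stk4) and 2 in 2SA minus 1SA (Tead1 and Stk4). Of all measured genes, 33.5%, 33.4% and 43.8% passed their own spot limit in these comparisons, so passing it was common and does not mark out a member. In 1SA minus WT, 0 of 9 genes were past 2-fold, where 1.86% of all measured genes were, 0 were 1.3-fold higher, where 6.56% were, and 0 were 1.3-fold lower, where 9.72% were. In 2SA minus WT, Tead1 alone was past 2-fold (all genes 1.67%) and past 1.3-fold higher (all genes 7.68%), and 0 genes were 1.3-fold lower (all genes 7.78%). With normexp, which adds an offset to each spot, the Tead1 difference was 0.90 and 0 members were past 2-fold. With no filter on dim probes 2 members were past it, Tead4 included. In 2SA minus 1SA, 0 genes were past 2-fold (all genes 3.60%), Tead1 at 1.99-fold and Stk4 at 1.35-fold were past 1.3-fold higher (all genes 11.8%), and 0 were 1.3-fold lower (all genes 10.5%). With 9 genes, shares of this size amount to about 1 gene or none, and the counts do not set the list apart from the other genes.

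The median difference of the 9 genes was -0.01 in 1SA minus WT, 0.10 in 2SA minus WT and 0.05 in 2SA minus 1SA, beside medians over all measured genes of -0.002, -0.03 and -0.03. Of the 9 genes, 5 were highest on 2SA, 3 on WT and 1 on 1SA, while over all genes 31.3%, 30.3% and 38.5% were highest on these arrays. Of the 5 on 2SA, Wwtr1 led the next array by 0.02, Nf2 by 0.05 and Tead3 by 0.05, all inside their spot limits. Only Tead1 and Stk4 were beyond their spot limits from both other arrays, so the count shows no lean of the list towards 2SA. Of these 9 genes, by the probe that stood for each, Tead1, and Stk4 in 2SA minus 1SA, were past 1.3-fold. The dim Nf2 probe and the bounds of Tead4 stand outside this count.

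**Figure D3:**
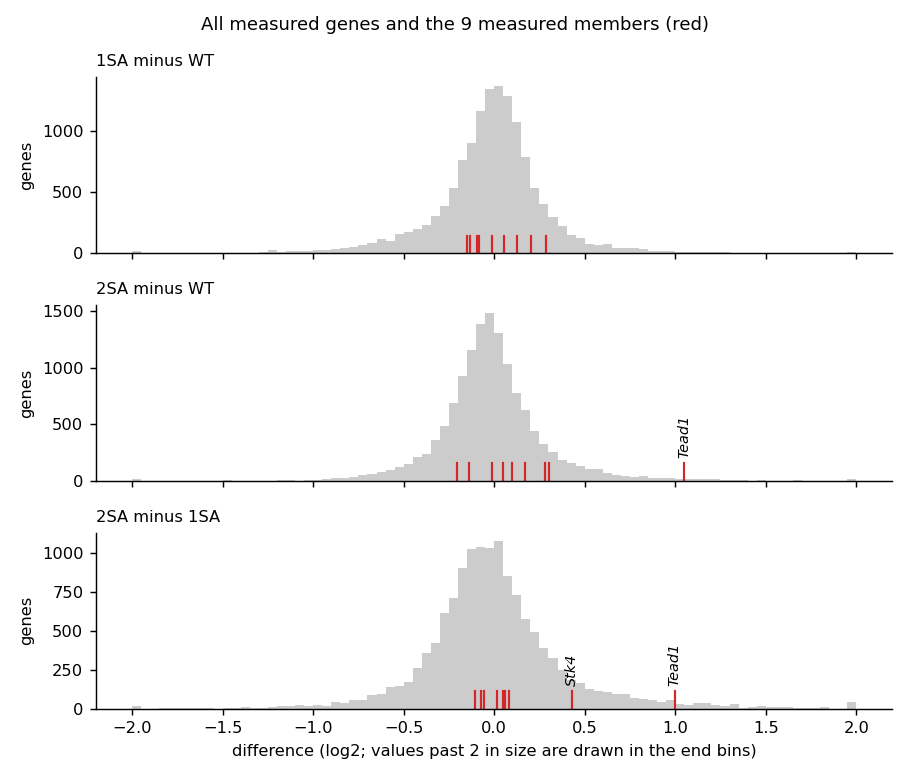
Histograms of the log2 difference of all 13623 measured genes in each comparison, with the 9 members measured on all arrays as red marks and names for those past 1.3-fold. Tead1 lies in the upper tail at 1.05 in 2SA minus WT and at 1.00 in 2SA minus 1SA.

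Another 69 genes of the pathway were listed by role, of which 61 were measured on all 3 arrays. Their median difference was -0.01 in 1SA minus WT, 0.01 in 2SA minus WT and 0.04 in 2SA minus 1SA. In 1SA minus WT, 0 of the 61 were 1.3-fold higher and 3 were 1.3-fold lower. In 2SA minus WT, 6 were higher and 2 lower, and in 2SA minus 1SA, 7 were higher and 5 lower. As shares of 61, the 6 higher genes in 2SA minus WT lie above the 7.68% of all genes, and the other 5 counts lie below their shares of all genes.

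Amotl2, an angiomotin family protein that binds YAP and is a known YAP target, followed the pattern of the bright Tead1 probe. It read 647 on WT, 685 on 1SA and 1559 on 2SA, with differences from WT of 0.16 and 1.13 and a spot limit of 0.17. Wwc1, which encodes KIBRA, an upstream activator, was 0.08 from WT on 1SA and 0.61 on 2SA against a spot limit of 0.17, and the MAP4K kinase gene Map4k1 was -0.21 and 0.66 against 0.24. Tnik, which encodes a kinase related to the MAP4Ks, read 40.1, 29.4 and 17.8 and had differences from WT of -0.37, inside its spot limit of 0.55, and -1.31.

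Rassf2, which encodes an MST-binding RASSF protein, read 113 on WT, 53.6 on 1SA and 186 on 2SA. It was -0.996 from WT on 1SA and 0.58 from WT on 2SA, with a spot limit of 0.28, and was the only pathway gene past 1.5-fold in 1SA minus WT. Mob1a and Mob1b encode the MOB1 adaptors of the LATS kinases. Mob1b was 0.10 from WT on 1SA and -0.32 on 2SA, inside its spot limit of 0.37, and Mob1a read 18.6, 13.6 and 17.1, with the 1SA spot not well above background. Ajuba, a LIM protein that restrains LATS kinases, was -0.17 and 0.14 from WT, and Vgll4, which competes with YAP for TEAD, was -0.06 and -0.03, all inside their spot limits of 0.18 and 0.26. In 2SA minus 1SA, Mob1b at -0.42 and Ajuba at 0.31 were beyond these limits, and Vgll4 at 0.03 was inside. A dimmer Mob1b probe gave -0.31 there, inside its spot limit of 0.44.

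By role, the 12 measured upstream regulators had medians of -0.01 in 1SA minus WT and -0.04 in 2SA minus WT. The 10 genes of the STRIPAK phosphatase complex, which opposes the MST kinases, ranged from -0.26 to 0.11 and from -0.15 to 0.19, with 0 past 1.3-fold. Over all measured genes, 6.56% were 1.3-fold higher and 9.72% lower in 1SA minus WT, and 7.68% and 7.78% in 2SA minus WT. With 10 genes, a count of 0 does not set the complex apart. Among the 11 genes of YAP retention in the cytoplasm, Amotl2 was 1.3-fold higher on 2SA. Ptpn14, a phosphatase that binds YAP, was 1.3-fold lower on both mutant arrays, at -0.499 and -0.56 from WT against a spot limit of 0.501. The 4 genes of YAP degradation had medians of 0.09 and 0.03, and the 11 of junctions and polarity -0.08 and 0.05.

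**Figure D4:**
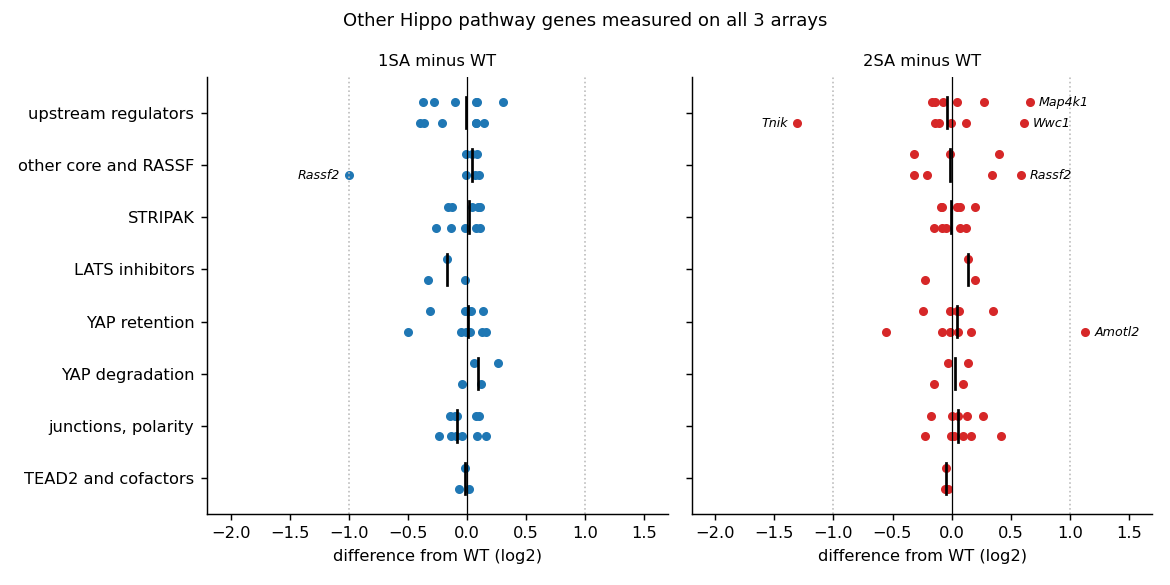
Log2 difference from WT of the other Hippo pathway genes by role on the 1SA and 2SA arrays, with each point a gene, a black bar for the median of a role and names for genes past 1.5-fold. Amotl2 lies at 1.13 and Tnik at -1.31 on 2SA, and Rassf2 lies at -0.996 on 1SA and 0.58 on 2SA.

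In whole liver, fewer cells of a type and less RNA per cell cannot be told apart. The arrays differed in markers of several cell types. All 8 hepatocyte markers were measured, and their summed level was 1.08 times that of WT on 1SA and 0.88 times on 2SA. The brightest of them, Alb and Serpina1c, make up most of the hepatocyte sum. On 2SA they were at -0.29 and -0.16, each inside its spot limit of 0.36, and Cyp2e1 at -0.24 was beyond its limit of 0.11. For Kupffer cells, the liver macrophages, the summed level of 7 of 7 markers was 0.72 and 0.54 times that of WT. This sum rests mostly on the markers brightest on WT, Cd5l at -0.42 and -0.84 and Marco at -1.21 and -1.59. The markers were mixed, with Clec4f at 0.45 and -1.56, Adgre1 at -0.49 and -0.16, and C1qa at -0.52 and 0.16. Below WT were 5 of the 7 on 1SA and 6 on 2SA, while 49.7% of all measured genes were above WT on 1SA and 43.6% on 2SA. For stellate cells, 6 of 7 markers gave 0.76 and 0.63, with Lrat at 0.26 and -0.60, and the brightest, Col1a1, at -0.54 and -0.68. The stellate sum rests mostly on Col1a1. On 1SA the markers were mixed, with 3 above WT, 3 below and a median of 0.10, and on 2SA all 6 were below WT. For bile duct, 7 of 7 markers gave 0.34 and 0.83, with Krt19 at -0.82 and -0.08, and the brightest of these markers, Spp1, at -1.73 and -0.31. For sinusoidal endothelium the ratios over 7 of 7 markers were 1.05 and 0.84, and the markers were mixed, with Stab2 at 0.12 and -0.21, Clec4g at 0.12 and -0.59, Lyve1 at -0.17 and 0.37, and Pecam1 at -0.11 and 0.35. For lymphocytes, 4 of 5 markers gave 1.00 and 0.97 with Cd3e at 0.10 and -0.16. For red cells, 3 of 4 gave 1.74 and 1.29 with Alas2 at 0.43 and 0.09. Krt19, Clec4f, Lrat, Stab2, Cd3e, Alas2 and Alb were all well above background on each array. On 2SA, where Tead1, Tead4 and Amotl2 were highest, most summed levels were the lowest of the 3 arrays. These were the hepatocyte, sinusoidal endothelium, Kupffer, stellate and lymphocyte sums. Over all measured genes, 42.1% were lowest on 2SA. The bile duct sum was lowest on 1SA and the red cell sum on WT. The part of cell composition in the member differences was not tested.

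**Figure D5:**
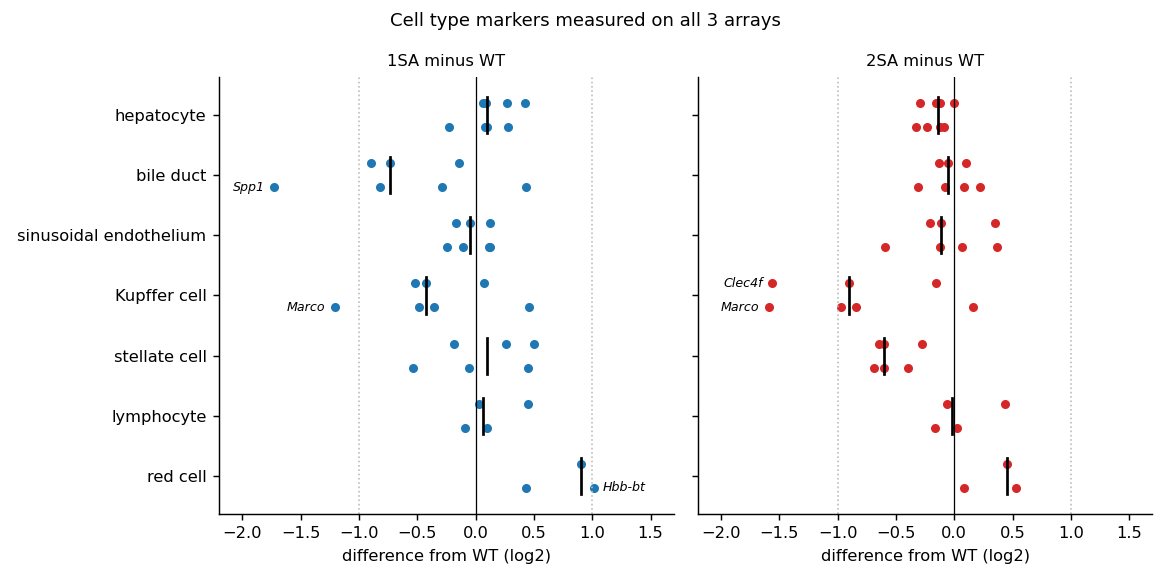
Log2 difference from WT of cell type markers on the 1SA and 2SA arrays, with each point a gene, a black bar for the median of a list and names for genes past 2-fold. Kupffer markers lie mostly below 0 on both arrays, down to -1.59 for Marco on 2SA, and bile duct markers lie lowest on 1SA, down to -1.73 for Spp1.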

How the data were processed

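RNA from mouse liver was labelled with Cy3 and hybridised to Agilent mouse 8x60K arrays. Per the file headers, the authors' scans were processed with Feature Extraction 10.10.1.1, and the deposited intensity of each spot is a linear brightness after the software's background subtraction. The authors' deposited series matrix held the same intensity times 1 constant per array, of unstated origin (3.02 for WT, 3.08 for 1SA and 2.81 for 2SA), and served as an alternative. Beside its control spots, an array carried 59305 spots for 55681 probes, of which 28972 on WT, 29705 on 1SA and 30784 on 2SA were measured, and 0 spots were saturated.

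Here, spots marked as outliers were left out, log2 intensities were averaged by probe, and the log2 of the 75th percentile of each array was subtracted. A probe was measured where at least 50% of its spots were well above background, and the brightest of a gene's probes that were measured on every array stood for the gene. Accessions were matched to RefSeq names (GRCm38.p6) for 26756 probes, and that table gave no coordinates because the design used build mm9. The spot limit is 2 SDs of a difference between repeated spots within 1 log2 unit of a probe's signal. The SD of a difference over all repeated probes was 0.10. Arrays have no read depth, and their number limits the precision.

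The members, the 69 other pathway genes, the marker lists and the 1.3-fold, 1.5-fold and 2-fold thresholds were chosen with earlier results of these data known. Named pathway genes were Tead2, Lats2, Mob1a, Mob1b, Amotl2, Ajuba and Vgll4, and any gene past 1.5-fold in a comparison, and Ptpn14 was added after its values were seen. Genes were not ranked by likeness of pattern, since 3 arrays cannot order it. Computation used Python 3.11.15, pandas 2.3.3 and numpy 2.4.6, with R 4.3.3 and limma 3.58.1 for the normexp background correction (offset 50, on median spot and local background brightness). The normalisation code was tested on simulated data with 200 changed probes. Alternatives were quantile normalisation, the array median, normexp, the series matrix, other filters on dim probes, the mean of all measured probes, outlier spots kept and a 1.5-fold threshold.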

Additional observations from a re-analysis of the deposited data

Results flagged for a closer look

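Rassf2 moved in opposite directions from WT on the mutant arrays, -0.996 on 1SA and 0.58 on 2SA, so that 2SA minus 1SA was 1.58 on the log2 scale. It was picked out because the single array of each mutant lay on the other side of WT, and the difference was not tested, since each group held 1 array.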

How the results depend on the processing

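Of 237 member differences recomputed under the alternatives, 7 moved by more than the spot SD. Most of the 237 had no room to move, so this count is no measure of robustness. The rescaled series matrix, the kept outlier spots and both other filters returned the reported value for each member they covered. The array median and the series matrix as deposited shift all genes of a comparison by the same amount. With normexp 5 moved and 22 did not, and the other 2 moved with the mean of all measured probes. The sign changed for 15 of the 237, and each of these was inside its spot limit before and after. Among them was Lats1 with normexp, at 0.04 in 1SA minus WT and -0.08 in 2SA minus 1SA. None of the differences past 1.3-fold changed sign under these alternatives. With normexp, Tead1 in 2SA minus WT was 0.90, so 0 members passed 2-fold there, and in 2SA minus 1SA 1 member passed 1.3-fold, with Stk4 at 0.30. The Tead4 bounds fell to 0.55 over WT and 0.53 over 1SA on the log2 scale with normexp, from 2.14 and 2.35, and that correction adds an offset that compresses dim spots. Without a filter on dim probes, 2 members passed 2-fold in 2SA minus WT and 2 passed 1.3-fold, and 1 passed 2-fold in 2SA minus 1SA, with Tead4 now counted. The mean of all measured probes gave Nf2 at 0.39 and 0.38 from WT, and 1 member past 1.3-fold in 1SA minus WT. The series matrix as deposited, an alternative chosen after seeing the data, gave 1 member past 2-fold in 2SA minus 1SA, and a 1.5-fold threshold left 1 member there. For the other pathway genes, the counts past 1.3-fold in either direction were 3, 8 and 12 in 1SA minus WT, 2SA minus WT and 2SA minus 1SA. They became 0, 4 and 6 with the stricter filter, which left 41 genes, and 1, 5 and 4 with a 1.5-fold threshold. They were 5 in 1SA minus WT with the series matrix as deposited, 13 in 2SA minus WT with no filter and 7 in 2SA minus 1SA with normexp. Single-spot readings near background, as for Tead3, Tead4, the dim Nf2 probe and the second Tead1 probe, limit what can be seen. The 3 arrays lay on 1 slide, and no fit with the slide as a block could be run. No paired analysis was possible because no group had a second array.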
